A study of Mus musculus with 6 samples.

Results

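The genes of the mouse major histocompatibility complex (MHC) and their closest partners in antigen presentation were followed in dorsal root ganglia (DRGs) of mice fed with LBP, the polysaccharide extract of wolfberries, or with PBS as vehicle. The set was taken from the gene list of the arrays by name. It holds each gene whose symbol starts with H2- (40 genes), together with B2m, Cd74, Ciita, Tap1, Tap2 and Tapbp (6 genes), which gives 46 of the 24623 genes measured. Of these, 31 belong to the class I side, 13 belong to the class II side, and 2 (H2-Ke2 and H2-Ke6) lie in the MHC region without encoding an MHC chain. RefSeq lists 6 of the 46 as pseudogenes (H2-K2, H2-Q5, H2-Bl, H2-T10, H2-Pb and H2-Ea-ps, the last under the symbol H2-Ea). H2-D1, another classical class I gene, was not analysed here.

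All animals were wild-type C57BL/6 mice, male and adult (8 to 12 weeks old), and the labels mention no nerve injury. One group received LBP by mouth on 13 consecutive days and the other received PBS, and L4/5 DRGs were then dissected for total RNA. Each group comprised 3 samples, and every sample had an array to itself (GeneChip Mouse Gene ST). The intensities are on the log2 scale throughout. The deposited treatment protocol mentions LBP alone for all 6 samples, while the titles and treatment labels give PBS for the controls, and the titles were followed. The methods describe DRGs from separate groups of mice without saying outright whether an array pools animals, so that p-values measure the spread between these samples.

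MHC class I molecules consist of a polymorphic heavy chain and the light chain β2-microglobulin, and show peptides from inside the cell to CD8+ T cells. The peptides are cut by the proteasome, pumped into the endoplasmic reticulum by the TAP transporter and loaded with the help of tapasin. Class II molecules consist of an alpha and a beta chain, show peptides from endocytosed proteins to CD4+ T cells, and are made mainly by macrophages, dendritic cells and B cells. Their assembly needs the invariant chain Cd74, and their transcription needs the transactivator Ciita. In DRGs, class II is known mainly from resident macrophages that surround the neurons. In C57BL/6 mice the E alpha gene is defective, so that no E molecule reaches the cell surface although the E beta gene is transcribed.

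The promoters are shown because the class I and the class II genes are known to be switched on through shared elements, the X, X2 and Y boxes, which a complex of RFX, CREB and NF-Y proteins occupies and on which Ciita or Nlrc5 then acts. RefSeq promoters (GRCm38.p6) were matched for 33 of the 46 genes, and the 150 bases before the start were searched on both strands for 4 motifs: AACNNATG as an X box core (in 4.43% of all 32851 promoter windows of this length), TGACG as an X2 box core (13.3%), ATTGG as the Y box, which is CCAAT on the other strand (24.5%), and the interferon-stimulated response element (1.59%). Letters and spacings were chosen after these promoters had been looked at, so the counts describe them and do not test anything. Capitals mark the matches. The first 3 belong to class II genes, with the A alpha chain at chr17:34287824-34287973 (minus strand), the E beta chain at chr17:34305717-34305866 (plus strand) and a DM beta chain at chr17:34153041-34153190 (plus strand). The other 4 belong to class I genes, with B2m at chr2:122147537-122147686 (plus strand), H2-K1 at chr17:34000348-34000497 (minus strand), H2-Q7 at chr17:35439005-35439154 (plus strand) and H2-M9 at chr17:36642664-36642813 (minus strand).
H2-Aa: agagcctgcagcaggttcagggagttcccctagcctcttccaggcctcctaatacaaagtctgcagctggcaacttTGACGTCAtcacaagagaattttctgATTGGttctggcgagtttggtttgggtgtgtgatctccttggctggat
H2-Eb1: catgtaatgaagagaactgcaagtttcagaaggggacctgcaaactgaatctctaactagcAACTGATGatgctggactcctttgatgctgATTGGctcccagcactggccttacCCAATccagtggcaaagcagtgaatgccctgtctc
H2-DMb1: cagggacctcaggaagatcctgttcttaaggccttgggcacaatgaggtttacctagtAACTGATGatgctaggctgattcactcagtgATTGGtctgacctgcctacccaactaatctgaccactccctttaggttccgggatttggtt
B2m: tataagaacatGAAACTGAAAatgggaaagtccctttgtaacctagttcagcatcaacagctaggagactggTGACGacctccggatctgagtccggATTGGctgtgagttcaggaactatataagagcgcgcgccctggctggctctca
H2-K1: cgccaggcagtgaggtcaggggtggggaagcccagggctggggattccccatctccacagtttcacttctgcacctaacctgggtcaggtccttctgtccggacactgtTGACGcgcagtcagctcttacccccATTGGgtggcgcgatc
H2-Q7: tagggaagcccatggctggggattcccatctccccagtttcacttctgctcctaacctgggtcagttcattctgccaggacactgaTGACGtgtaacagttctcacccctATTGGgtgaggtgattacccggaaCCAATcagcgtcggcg
H2-M9: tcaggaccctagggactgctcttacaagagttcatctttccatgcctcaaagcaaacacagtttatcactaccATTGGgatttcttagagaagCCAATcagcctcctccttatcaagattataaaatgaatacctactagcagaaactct
An X box core followed by ATTGG at a spacing of 28 to 35 bases occurred in 8 of the 32851 windows (0.0244%), and 5 of these 8 were class II genes of the set (H2-DMb1, H2-DMb2, H2-Ob, H2-Eb1 and H2-Eb2). TGACG followed by ATTGG at a spacing of 22 to 28 bases occurred in 42 windows (0.128%), among them B2m, H2-K1, H2-Q7 and H2-M3 of class I and H2-Aa of class II. A Y box was found in 19 of the 24 class I promoters and in 7 of the 8 class II promoters. Exact matches to the letters searched for the interferon-stimulated response element were found in B2m and H2-T23. The first capitals of the B2m sequence show such a match. Variants of these letters were not searched. The search therefore cannot show that promoters without a match, such as those of H2-K1 and H2-Q7, lack the element. The promoter shown for H2-M9 holds Y box letters on both strands and neither of the other pairs.

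The labelled tissue was checked against markers of sensory neurons. All 12 of these genes were read above the lower quartile of the arrays, with values from 8.98 to 12.58, and the neuronal marker Tubb3 averaged 11.80 ± 0.12 after LBP and 11.78 ± 0.15 after PBS (SD, n = 3). The arrays had been brought to a common scale, with medians of 6.45 to 6.46 and correlations between arrays of 0.990 to 0.994. LBP replicate 2 stood apart in markers of the central nervous system, whose median over 9 genes lay 1.12 above the PBS mean on that array and between -0.07 and 0.07 on the others. Markers of skeletal muscle (9 genes) ranged by array from -1.11 on LBP replicate 2 to 0.46 on PBS replicate 3.

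No gene of the set passed limma's test after Benjamini-Hochberg adjustment over all genes. The adjusted p was 0.9996 for each of the 46, against 2 genes of all 24623 (0.00812%) that passed at 0.05. At an unadjusted p under 0.05, 1 of the 46 genes was called, H2-M9, while 4.72% of all genes were called, 2.07% higher and 2.65% lower after LBP. Values of the 2 groups did not overlap for 2 of the 46 genes, H2-Ab1 and H2-Q7, against 9.63% of all genes. Thus neither count stood above its background. Log2 fold changes (LBP minus PBS) ran from -0.29 to 0.35 with a median of -0.04, and the median over all genes was 0.00. For 39 of the 46 genes the 95% confidence interval of the LBP to PBS ratio lay within 1.5-fold in both directions. The 7 genes whose intervals reached beyond 1.5-fold were H2-K2, H2-M1, H2-M9, H2-Q6, H2-T23, H2-Ab1 and Cd74.

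**Figure D1:**
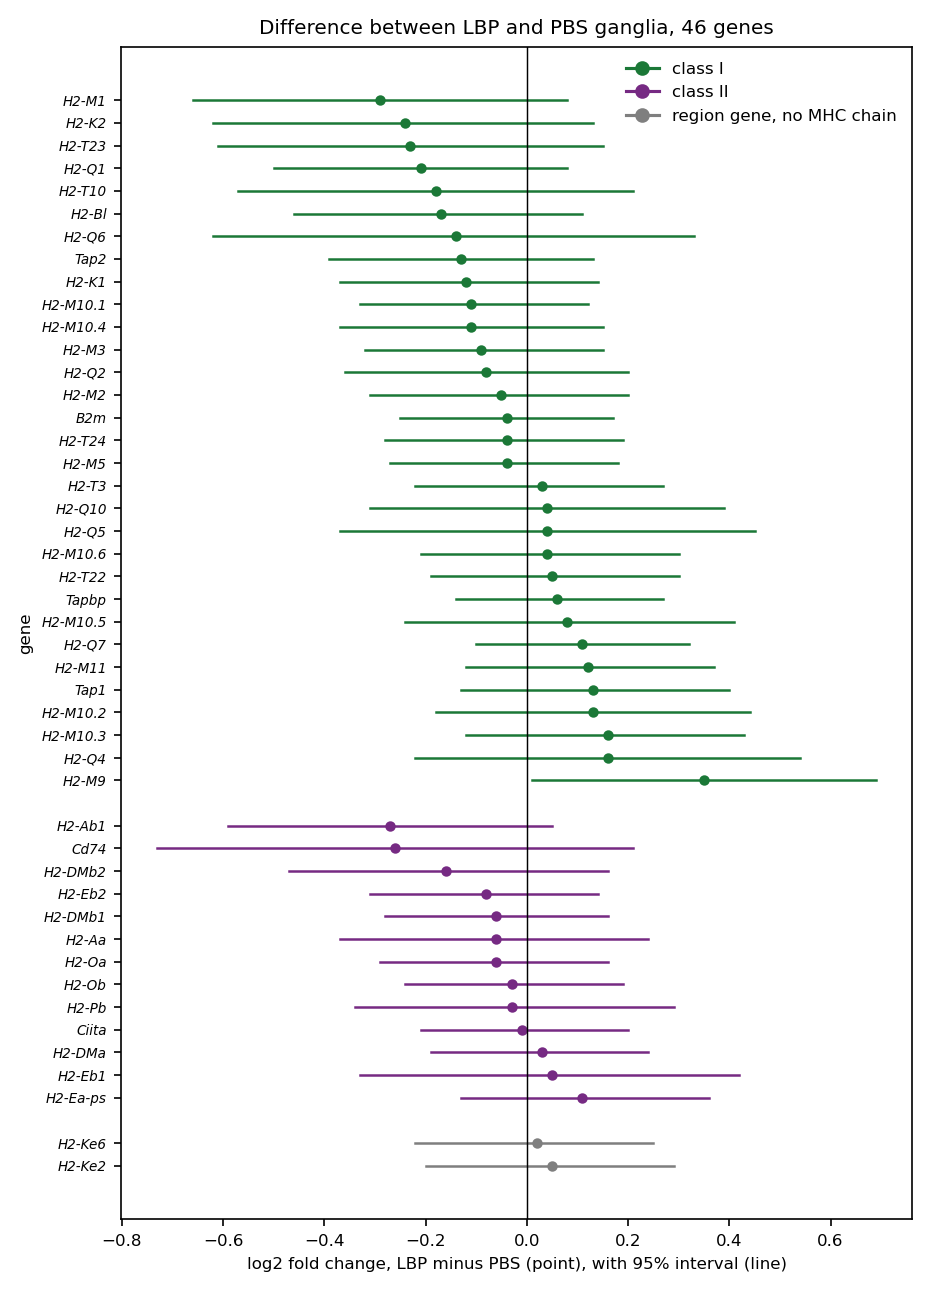
Log2 fold change of each of the 46 genes (LBP minus PBS, x axis) with its 95% confidence interval from limma (line), with class I genes above, class II genes below them and the 2 region genes at the bottom, sorted by fold change within each class. The H2-M9 interval (0.01 to 0.69) alone leaves out 0, and the lowest bound is that of Cd74 (-0.73 to 0.21).

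On the class II side, 10 of the 13 genes (76.9%) were lower after LBP on average than after PBS, with log2 fold changes around a median of -0.06 in a range of -0.27 to 0.11. Over all genes 50.3% had the lower mean after LBP. At an unadjusted p under 0.05, 0 of the 13 were called in limma, and at an adjusted p 0 were called. The lowest unadjusted p of the class was that of H2-Ab1. The lowest log2 fold changes were those of H2-Ab1 (-0.27) and Cd74 (-0.26). Less class II RNA in each cell and fewer class II cells in the ganglion cannot be told apart in whole DRGs.

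H2-Ab1 encodes the A beta chain. Its log2 intensity was 9.21, 9.45 and 9.47 on the LBP arrays and 9.48, 9.96 and 9.51 on the PBS arrays. The groups did not overlap, though the highest LBP array and the lowest PBS array nearly met, and PBS replicate 2 was high. The means were 9.38 ± 0.15 and 9.65 ± 0.27 (SD, n = 3), with a log2 fold change of -0.27 (SE 0.14, 95% interval -0.59 to 0.05, a ratio of 0.829). Limma gave an unadjusted p of 0.0861 and an adjusted p of 0.9996, and the exact permutation test gave p = 0.1, which is the smallest that 3 against 3 can give. Without PBS replicate 2 the log2 fold change was -0.12, without LBP replicate 1 it was -0.19, and without PBS replicate 1 it was -0.36, at an unadjusted p of 0.048 in limma.

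Cd74, the invariant chain that guards the groove of new class II molecules, was the most scattered gene of the class. Its log2 intensity was 9.44, 10.17 and 10.07 after LBP and 9.99, 10.54 and 9.93 after PBS. LBP replicate 1 lay below all other arrays and PBS replicate 2 above all others, and the remaining 4 arrays lay close together. The means were 9.89 ± 0.39 and 10.15 ± 0.34 (SD, n = 3), with a log2 fold change of -0.26 (SE 0.21, 95% interval -0.73 to 0.21, unadjusted p = 0.247 in limma). The residual SD of 0.37 was larger than that of 97.9% of all genes. Without LBP replicate 1 the log2 fold change was -0.03, and without PBS replicate 2 it was -0.06.

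H2-Aa, which encodes the A alpha chain that pairs with H2-Ab1, gave 7.73, 8.06 and 8.27 after LBP and 8.04, 8.18 and 8.03 after PBS. The LBP values spread on both sides of the PBS values. Its log2 fold change was -0.06 (SE 0.14, 95% interval -0.37 to 0.24, unadjusted p = 0.657 in limma), and it was 0.08 without LBP replicate 1. H2-Eb1, the E beta chain, gave 7.74, 7.99 and 8.50 after LBP and 7.99, 8.07 and 8.02 after PBS. Here the lowest and the highest array were both LBP arrays, replicates 1 and 3, while the PBS arrays lay close together. Its log2 fold change was 0.05 (SE 0.17, 95% interval -0.33 to 0.42, unadjusted p = 0.788 in limma). It was -0.17 without LBP replicate 3 and 0.22 without LBP replicate 1, so that its sign rested on single arrays.

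**Figure D2:**
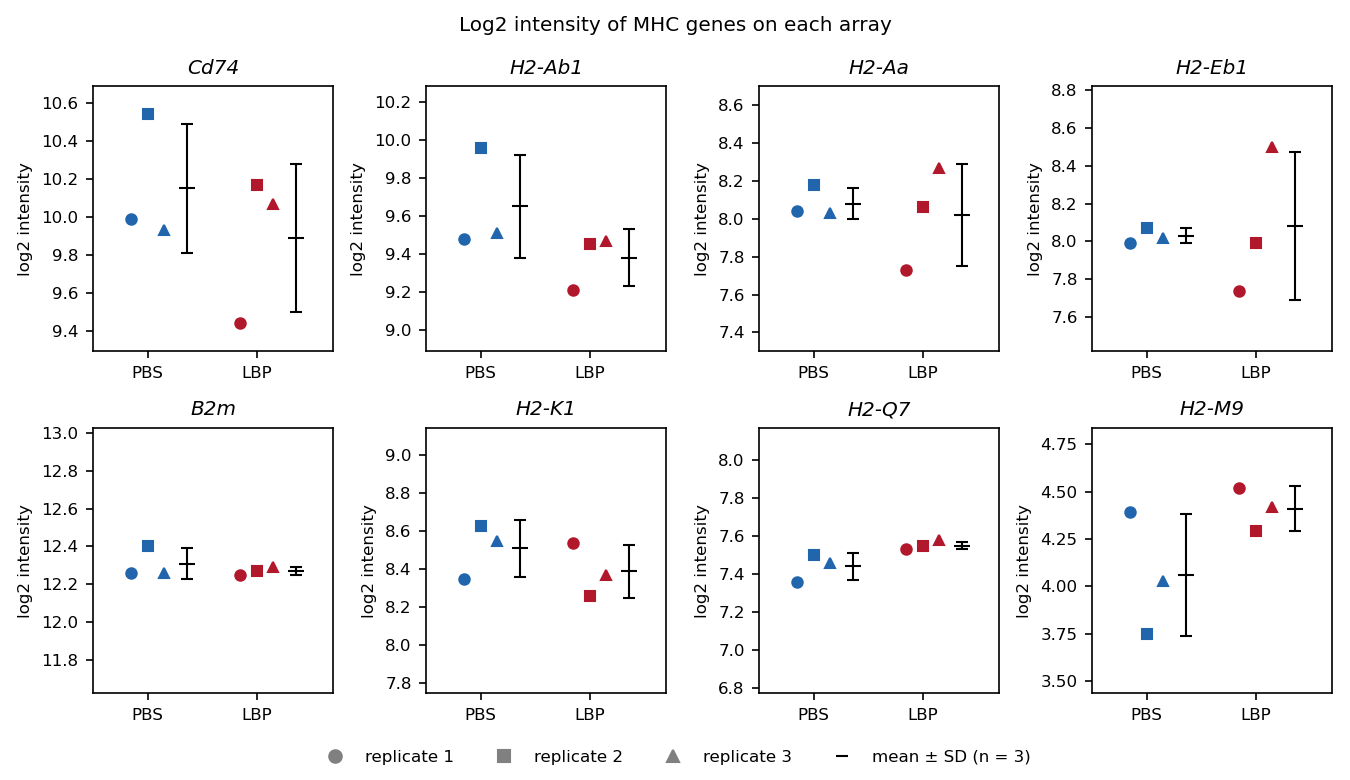
Log2 intensity of 4 class II genes (upper row) and 4 class I genes (lower row) on each PBS (blue) and LBP (red) array, with the marker shape giving the replicate number and bars the mean ± SD (n = 3). Each y axis spans the same log2 range, so the wide scatter of Cd74 (9.44 to 10.54) can be set against the narrow one of B2m (12.25 to 12.40).

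LBP replicate 1 was the lowest of the 6 arrays for each of these 4 genes (H2-Aa, H2-Ab1, H2-Eb1 and Cd74), whereas it was the lowest for 15.0% of all genes. PBS replicate 2 was the highest for 2 of them (H2-Ab1 and Cd74) and LBP replicate 3 for the other 2. Relative to the PBS mean of each gene, the median over the 4 genes was -0.40, -0.03 and 0.05 on LBP replicates 1, 2 and 3 and -0.11, 0.20 and -0.10 on PBS replicates 1, 2 and 3. Their median residual SD was 0.25, against 0.14 over all genes. These 4 were grouped after their values had been seen.

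Ciita, the transactivator, gave 6.67, 6.75 and 6.67 after LBP and 6.71, 6.65 and 6.76 after PBS. Its log2 fold change was -0.01 (SE 0.09, 95% interval -0.21 to 0.20, unadjusted p = 0.943 in limma), and 3.71% of all genes had a smaller residual SD. H2-DMa, a chain of the DM molecule that exchanges peptides on class II, gave 7.35, 7.25 and 7.24 after LBP and 7.35, 7.17 and 7.24 after PBS, and the groups overlapped fully. Its log2 fold change was 0.03 (SE 0.10, 95% interval -0.19 to 0.24). H2-DMb1, one of the DM beta chains, gave 4.80, 4.84 and 4.77 after LBP and 5.01, 4.80 and 4.79 after PBS, below the lower quartile of every array. H2-DMb2, the other DM beta chain, gave 5.06, 4.96 and 4.75 after LBP and 5.37, 4.98 and 4.89 after PBS. The log2 fold change of this gene was -0.16 (SE 0.14, unadjusted p = 0.294 in limma). It averaged 4.93 ± 0.16 (SD, n = 3) after LBP and 5.08 ± 0.26 after PBS, with LBP replicate 3 lowest and PBS replicate 1 highest. H2-Oa and H2-Ob, the chains of the DO molecule that restrains DM, had log2 fold changes of -0.06 and -0.03 and residual SDs of 0.09 and 0.07. H2-Eb2, H2-Ea-ps and H2-Pb were below the lower quartile on every array, with log2 fold changes of -0.08, 0.11 and -0.03. The 4 class II genes in that dim range therefore comprised the 2 named pseudogenes, H2-Eb2 and H2-DMb1.

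On the class I side, 17 of the 31 genes (54.8%) had lower means after LBP than after PBS, with log2 fold changes around a median of -0.04 in a range of -0.29 to 0.35. At an unadjusted p under 0.05, 1 gene was higher and 0 were lower after LBP, and 9 of the 31 were below the lower quartile on every array. The class I heavy chain genes arose by duplication and are near-identical in places, so that probes of one may read RNA of another and the values of single Q, T, K and M genes are uncertain to that extent.

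B2m, the light chain that all class I molecules share, varied little. It gave 12.25, 12.27 and 12.29 after LBP and 12.26, 12.40 and 12.26 after PBS, with PBS replicate 2 slightly above the other arrays. The means were 12.27 ± 0.02 and 12.31 ± 0.08 (SD, n = 3), with a log2 fold change of -0.04 (SE 0.09, unadjusted p = 0.695 in limma). The 95% interval of -0.25 to 0.17 corresponds to a ratio between 0.841 and 1.13. Only 6.22% of all genes had a smaller residual SD.

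The peptide loading genes showed no common direction. Tap1, a subunit of the peptide transporter, gave 7.46, 7.51 and 7.42 after LBP and 7.23, 7.57 and 7.19 after PBS. The LBP arrays lay together between the PBS arrays, with PBS replicate 2 highest, and the log2 fold change was 0.13 (SE 0.12, 95% interval -0.13 to 0.40). Without PBS replicate 2 it was 0.25, at an unadjusted p of 0.0453 in limma. Tap2, the other subunit, gave 6.66, 6.43 and 6.31 after LBP and 6.68, 6.61 and 6.49 after PBS. Its log2 fold change was -0.13 (SE 0.12, 95% interval -0.39 to 0.13). Tapbp, the gene of tapasin, gave 7.43, 7.46 and 7.34 after LBP and 7.35, 7.36 and 7.32 after PBS, with a log2 fold change of 0.06 (SE 0.09, 95% interval -0.14 to 0.27) and groups that overlapped.

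Among the heavy chains, H2-K1 is the classical K molecule. It gave 8.54, 8.26 and 8.37 after LBP and 8.35, 8.63 and 8.55 after PBS, and the groups overlapped. The means were 8.39 ± 0.14 and 8.51 ± 0.15 (SD, n = 3), with a log2 fold change of -0.12 (SE 0.12, 95% interval -0.37 to 0.14, unadjusted p = 0.341 in limma). The neighbouring pseudogene H2-K2 gave 7.24, 7.07 and 6.54 after LBP and 7.04, 7.31 and 7.24 after PBS. LBP replicate 3 was far below the other arrays, and the log2 fold change of -0.24 (SE 0.17) became -0.04 without it. Without LBP replicate 1 it was -0.39, at an unadjusted p of 0.0443 in limma.

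H2-Q7 encodes a nonclassical class I molecule, known in C57BL/6 mice as a Qa-2 antigen. It gave 7.53, 7.55 and 7.58 after LBP and 7.36, 7.50 and 7.46 after PBS. The groups did not overlap, and the gap between them was small. The means were 7.55 ± 0.02 and 7.44 ± 0.07 (SD, n = 3), with a log2 fold change of 0.11 (SE 0.09, 95% interval -0.10 to 0.32). Limma gave an unadjusted p of 0.257 and the exact permutation test gave p = 0.1. The other 6 genes of the Q region ranged from -0.21 (H2-Q1) to 0.16 (H2-Q4), and the Q genes as a group scattered widely, with a median residual SD of 0.25. H2-Q6 had the largest residual SD of them, 0.37, larger than that of 98.0% of all genes. It averaged 6.18 ± 0.38 (SD, n = 3) after LBP and 6.33 ± 0.36 after PBS. The 6 genes of the T region had a median of -0.11 and ranged from -0.23 (H2-T23) to 0.05 (H2-T22). H2-T23 encodes Qa-1, a ligand of inhibitory receptors on natural killer cells, and averaged 5.73 ± 0.38 (SD, n = 3) after LBP and 5.96 ± 0.10 after PBS.

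The M region holds 12 genes of the set, of which 8 were below the lower quartile on every array. The M10 genes, H2-M1, H2-M9 and H2-M11 are known from sensory neurons of the vomeronasal organ, where they accompany pheromone receptors. Of these 9 genes, 7 were below the lower quartile on every array, and their median log2 fold change was 0.08. H2-M9 was the gene called at an unadjusted p under 0.05. It gave 4.52, 4.29 and 4.42 after LBP and 4.39, 3.75 and 4.03 after PBS, all in the dim range. PBS replicates 2 and 3 were lower than all LBP arrays, while PBS replicate 1 lay among the LBP values. The means were 4.41 ± 0.12 and 4.06 ± 0.32 (SD, n = 3), with a log2 fold change of 0.35 (SE 0.15, 95% interval 0.01 to 0.69). Limma gave an unadjusted p of 0.0458 and an adjusted p of 0.9996, and the exact permutation test gave p = 0.2. The log2 fold change was 0.20 without PBS replicate 2 (unadjusted p = 0.194 in limma) and 0.52 without PBS replicate 1. The unadjusted p was also above 0.05 without LBP replicate 1 (0.13), without LBP replicate 3 (0.0882) and without PBS replicate 3 (0.0937). H2-M1, which is closely related, had a fold change of the opposite sign. It gave 3.30, 3.50 and 3.23 after LBP and 3.52, 3.34 and 4.03 after PBS, with a log2 fold change of -0.29 (SE 0.17, unadjusted p = 0.116 in limma) that became -0.09 without PBS replicate 3 and -0.43 without PBS replicate 2 (unadjusted p = 0.0271). H2-M3, which shows formylated bacterial peptides and was read above the dim range, averaged 7.31 ± 0.15 after LBP and 7.40 ± 0.07 after PBS (SD, n = 3).

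The 2 genes of the region that encode no MHC chain were read alike in both groups. H2-Ke2, which RefSeq lists as Pfdn6, a subunit of the prefoldin chaperone, averaged 8.90 ± 0.17 after LBP and 8.85 ± 0.03 after PBS (SD, n = 3). H2-Ke6, a steroid dehydrogenase gene, averaged 6.84 ± 0.12 and 6.83 ± 0.11.

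**Figure D3:**
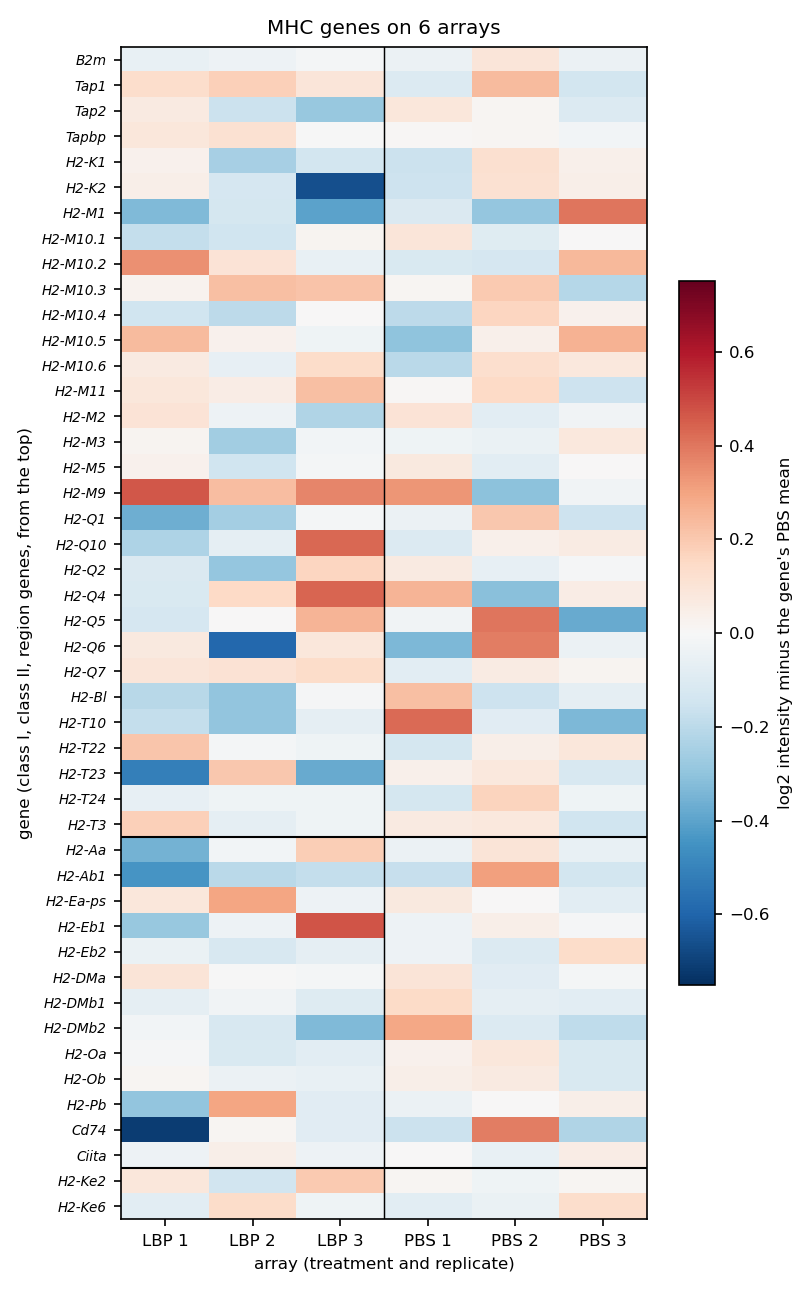
Log2 intensity minus the PBS mean of the gene (colour, red above and blue below) for the 46 genes (rows) on the 6 arrays (columns), with lines between class I, class II and the region genes and between LBP and PBS. The darkest blue cells are Cd74 on LBP replicate 1 (9.44, against a PBS mean of 10.15) and H2-K2 on LBP replicate 3 (6.54, against 7.20), and neither gene is as low on the other 2 LBP arrays.

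Antigen presentation also draws on genes outside the H2 names, and 38 of these were listed by role. Of the 38, 30 (78.9%) had a negative log2 fold change, the median was -0.09, and 0 were higher and 2 lower at an unadjusted p under 0.05 in limma, against 2.07% and 2.65% of all genes. The 2 were Ctsh and Cd80. None passed after adjustment. Groups did not overlap for 7 of the 38 (18.4%, against 9.63% of all genes).

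Cd80, a costimulatory ligand that antigen-presenting cells show to T cells, gave 5.44, 5.53 and 5.70 after LBP and 6.08, 6.06 and 5.90 after PBS. All LBP arrays were below all PBS arrays. The means were 5.56 ± 0.13 and 6.01 ± 0.10 (SD, n = 3), with a log2 fold change of -0.46 (SE 0.11, 95% interval -0.69 to -0.22), an unadjusted p of 0.00177 and an adjusted p of 0.8696 in limma. The other 5 genes listed with Cd80, not all of which are costimulatory, were between -0.21 (Cd274) and 0.07 (Cd86). Ctsh, a lysosomal cathepsin, gave 6.67, 6.98 and 7.26 after LBP and 7.27, 7.76 and 7.25 after PBS, and the groups overlapped by a narrow margin. Its log2 fold change was -0.45 (SE 0.18, 95% interval -0.85 to -0.06, unadjusted p = 0.0279 and adjusted p = 0.9996 in limma). LBP replicate 1 was again the lowest array and PBS replicate 2 the highest.

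The remaining class II pathway genes included the promoter-binding factors and the proteases that trim the invariant chain. Rfx5, a subunit of the RFX complex, averaged 6.26 ± 0.11 (SD, n = 3) after LBP and 6.45 ± 0.06 after PBS, and Nfyc, a subunit of NF-Y, averaged 8.10 ± 0.01 and 8.27 ± 0.04. Neither overlapped between groups, with log2 fold changes of -0.19 and -0.17, and neither reached an unadjusted p under 0.05. Ctsb did not overlap either (-0.10, unadjusted p = 0.3 in limma). The list thus had 3 genes without overlap (21.4%), all lower after LBP, against 9.63% of all genes. Ctss, the main protease for the invariant chain in macrophages and B cells, had a log2 fold change of -0.16 (SE 0.17). The list as a whole (14 genes) had a median of -0.08, and 11 were negative.

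The class I pathway outside H2 (11 genes) had a median of -0.03, with 0 genes at an unadjusted p under 0.05. Nlrc5, the transactivator of class I genes, averaged 5.84 ± 0.11 (SD, n = 3) after LBP and 5.73 ± 0.25 after PBS, with a log2 fold change of 0.10. The immunoproteasome subunit Psmb8 had a log2 fold change of 0.00, and Psmb9 one of -0.22 (unadjusted p = 0.0595 in limma) with groups that did not overlap. Class I-like molecules outside H2 (7 genes) had a median of -0.18. The lowest of them was Mr1, which shows vitamin metabolites to T cells, with 8.64 ± 0.05 after LBP and 8.85 ± 0.07 after PBS (SD, n = 3), a log2 fold change of -0.21 and an unadjusted p of 0.0529 in limma.

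Interferon-gamma is the best known inducer of both classes. Of 15 genes of the response to it, 0 were called at an unadjusted p under 0.05 in limma, and the median log2 fold change was 0.01. For Irf1, a transcription factor of the response, it was 0.04. Of 16 genes of the type I interferon response, 0 were called as well, with a median of 0.03. By array, the interferon-gamma list was highest on LBP replicate 1 (0.19 above the PBS mean) and PBS replicate 2 (0.14).

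Markers of the cells that make class II were read beside the class II chains. Of 19 macrophage markers, 14 had a negative log2 fold change (median -0.06), 1 was called at an unadjusted p under 0.05 (Laptm5, -0.37, unadjusted p = 0.0120 in limma), and none was below the lower quartile on every array. Values of the groups did not overlap for 4 of the 19 (21.1%: Aif1, Cx3cr1, Lyve1 and Laptm5). Over all genes 50.3% had a negative log2 fold change, 4.72% were called and 9.63% did not overlap. The defining marker Csf1r was read at 7.20 ± 0.34 after LBP and 7.29 ± 0.06 after PBS, and Cd68 at 7.48 ± 0.24 and 7.56 ± 0.21 (SD, n = 3). The 5 macrophage markers with higher means after LBP were Cd163 (0.33, unadjusted p = 0.0975 in limma), Tyrobp (0.12), Ms4a7 (0.09), Mpeg1 (0.06) and Emr1 (0.03). By array, the median of the macrophage list was -0.17, -0.06 and 0.00 on LBP replicates 1, 2 and 3 and -0.11, 0.18 and -0.07 on PBS replicates 1, 2 and 3. It was thus lowest on LBP replicate 1 and highest on PBS replicate 2. The median of the 4 class II genes grouped above had the same extremes, although H2-Aa and H2-Eb1 were highest on LBP replicate 3. Over all 13 class II genes the array medians were -0.05, -0.03 and -0.07 on LBP replicates 1, 2 and 3. On PBS replicates 1, 2 and 3 they were 0.00, 0.00 and -0.08, so PBS replicate 3 was lowest there. LBP replicate 1 was the lowest array for 8 of the 19 macrophage markers (42.1%, against 15.0% of all genes), and PBS replicate 2 the highest for 12 (63.2%, against 15.7%). Fibroblast markers (9 genes) had their extremes on these arrays too, at -0.37 and 0.17. Of the 9, 2 (22.2%) were lower at an unadjusted p under 0.05 in limma (Col3a1 -0.43 and Dpt -0.40), against 2.65% of all genes. Schwann cell and myelin markers (9 genes) were lowest on LBP replicate 1 for 8 of the 9 (88.9%, against 15.0% of all genes), with a median of -0.25 there. All 9 were highest on LBP replicate 2 (100%, against 20.1% of all genes), with a median of 0.56 there. Neutrophil and bone marrow markers (12 genes, 11 with lower means after LBP) were at -0.48, 0.23 and 0.18 on PBS replicates 1, 2 and 3. On LBP replicates 1, 2 and 3 they were at -0.20, -0.27 and 0.00. Of the 12, 1 (8.33%) was called, Elane (-0.28, unadjusted p = 0.0131 in limma), with groups that did not overlap. The skeletal muscle markers were at -0.94 on PBS replicate 2. The 5 erythroid markers were all highest on LBP replicate 3, against 18.1% of all genes, with a median of 0.66 there. Dendritic cell markers (10 genes) ranged by array from -0.02 to 0.11, with 1 gene below the lower quartile on every array and 0 called. B cell markers (9 genes, 2 of them below the lower quartile on every array) ranged from -0.15 to 0.01. Of these, 1 was called, Pax5 (-0.26, unadjusted p = 0.0388 in limma), which is 11.1% against 4.72% of all genes. Of 8 satellite glia markers, 2 were called higher (Cdh19 0.49, unadjusted p = 0.00636, and Kcnj10 0.29, unadjusted p = 0.0196 in limma), against 2.07% of all genes. Groups did not overlap for 3 of the 8 (37.5%), all higher after LBP. Of 9 endothelial markers 0 were called. Whether the cell content of the samples has a part in the class II values was not tested.

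**Figure D4:**
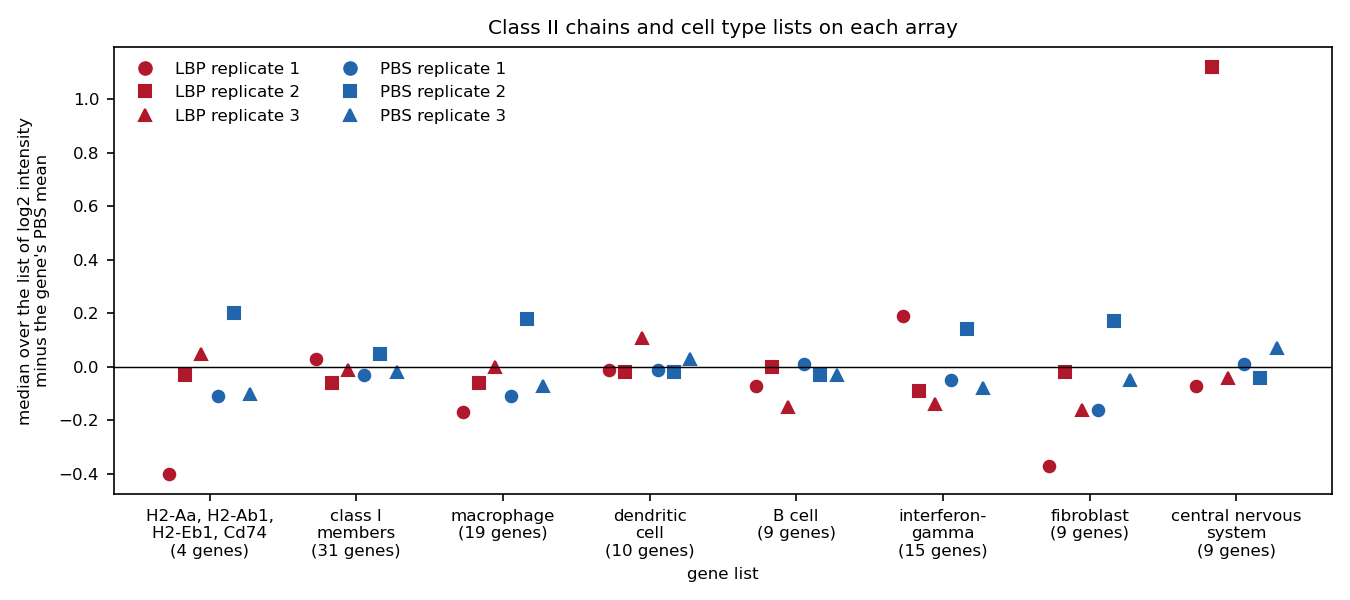
Median over each gene list of the log2 intensity minus the PBS mean of the gene (y axis) on each LBP (red) and PBS (blue) array, with the marker shape giving the replicate number. The 4 class II genes and the macrophage and fibroblast lists have LBP replicate 1 lowest (-0.40, -0.17 and -0.37). They have PBS replicate 2 highest (0.20, 0.18 and 0.17). The 4 class II genes were grouped after their values had been seen, and the medians over all class II genes are not drawn. LBP replicate 2 stands apart in the central nervous system list (1.12).

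T and NK cell markers (12 genes), which would mark the cells that read MHC molecules, had a median log2 fold change of 0.02. Klrb1c, an NK cell receptor, was called higher at an unadjusted p under 0.05 (0.27, unadjusted p = 0.0197 in limma), in the dim range on every array. It was 1 of the 12 (8.33%), against 2.07% of all genes called higher. Without LBP replicate 2, the array with high central nervous system markers, the set of 46 had 2 genes at an unadjusted p under 0.05 (H2-M9 and H2-T23). Of all 24623 genes 1561 were called in that fit, against 1161 with every array. The class II genes again had 0. Without LBP replicate 1 the set of 46 had 1 (H2-K2), against 1247 of all genes.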

How the data were processed

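Per the labels and the methods, RNA of L4/5 DRGs was hybridized to GeneChip Mouse Gene ST arrays. The authors processed them in R with the expresso function and MAS5, and normalized by quantiles. Their methods give a rule for omitting arrays that correlated poorly with the rest, without saying whether any array met it. The values they deposited are log2 intensities, a single one for each symbol on each array. Neither a genome build nor the MAS5 version is stated (not given in the sources used here). Columns with the authors' own fold changes and p-values, and 3 columns that compare single arrays, were deposited too and were not used. Of 24647 rows, 24 whose symbols had turned into dates were left out (a regulator of class II may be among them and was not analysed here).

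A model with treatment as its factor was fitted to all 24623 genes by limma 3.58.1 (lmFit, eBayes) under R 4.3.3 (two-sided, 5.9 prior degrees of freedom), with Benjamini-Hochberg adjustment over all genes. Single genes were also tested by an exact two-sided permutation test in Python 3.11.15. The fit was tested on simulated data. A gene was called dim when its log2 value lay below the lower quartile of every array (5.04 to 5.05), which says nothing of whether it is expressed. The number of arrays limits the precision. Alternatives were a shift of each array to a common median, an intensity trend, robust estimation, leaving out genes whose mean over all arrays lay below the lower quartile of gene means (5.05), array weights, a replicate block, leaving out each array, and, for values by array, the mean of all 6 arrays as reference.

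Values on every array were given for H2-K1, B2m, Tap1, Tap2, Tapbp, H2-Aa, H2-Ab1, H2-Eb1, Cd74, Ciita, H2-DMa and H2-DMb1, for members with an unadjusted p under 0.05 or without overlap, and for the 3 of each class with the largest change. Other genes named were picked after their values were seen, as were the promoters. The members and gene lists were chosen with earlier results of these data known.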

Additional observations from a re-analysis of the deposited data

How the results depend on the processing

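At an adjusted p under 0.05, limma called 0 genes of class I, of class II and of the antigen presentation genes outside H2 under each alternative run. At an unadjusted p under 0.05, class I had 1 called gene, 2 with array weights, and 0 with an intensity trend or with genes of a low mean (under 5.05) left out, which kept 31 of the 46 members. Leaving out 1 array gave 0 to 2, and moved the class I median of -0.04 to between -0.06 and 0.02. Class II had 0 called genes and 1 (H2-Ab1, unadjusted p rounding to 0.05) with the replicate block, and 0 to 1 with 1 array left out, with medians between -0.08 and -0.01 around -0.06. The 38 genes outside H2 had 2 called genes, 4 with array weights, and 1 to 3 with 1 array left out. Over all genes 1161 were called, 1584 with array weights, and 968 to 1561 with 1 array left out. The log2 fold change of H2-Eb1 turned from 0.05 to just below 0 (0.00 when rounded) with array weights. With 1 array left out, the signs of B2m (-0.06 to 0.01), H2-Aa (-0.19 to 0.08), H2-Eb1 (-0.17 to 0.22), Ciita (-0.04 to 0.02), H2-DMa (-0.02 to 0.08) and H2-DMb1 (-0.10 to 0.01) each turned at least once. The class II median on PBS replicate 3 was -0.08 relative to the PBS mean and -0.03 relative to the mean of all 6 arrays. Causes of these shifts were not tested.

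The samples share only a replicate number. Deviations of same-numbered LBP and PBS arrays from their group means correlated with r = 0.109, -0.0348 and 0.0836 for replicates 1, 2 and 3. For differently numbered arrays r ran from -0.243 to 0.172, a range that holds all same-numbered values. The replicate block moved the count of all genes at an unadjusted p under 0.05 from 1161 to 1306 and left the class I count at 1. Dim genes, 13 of the 46 on every array, limit what can be read from the M region.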
